A study of Mus musculus with 12 samples.

Results

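The IL-20 subfamily of cytokines was followed through its 7 genes in the table: the ligand genes Il19, Il20 and Il24 and the receptor chain genes Il20ra, Il20rb, Il22ra1 and Il10rb. They were taken by symbol from 29956 named genes, and all 7 were found. All 7 also passed the filter on low counts that left 18218 genes for testing, although Il20 passed it through the S. aureus libraries alone, with 0 of 4 A. faecalis and 0 of 4 vehicle libraries at 10 counts or more.

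Skin was collected on day 3 from full-thickness punch wounds in the back of diabetic mice and its RNA was sequenced, with 4 mice in each of 3 groups. Wounds had received Staphylococcus aureus, a Gram-positive skin pathogen, Alcaligenes faecalis, a Gram-negative bacterium, or a vehicle, which was phosphate-buffered saline with 10% glycerol, whereas both bacteria were given in the saline. The mice of every group carried the genotype B6.BKS(D)-Leprdb/db, so all of them lacked the signalling form of the leptin receptor, and the samples hold no lean or unwounded skin. The series text gives 4 mice per group, and the age of the mice is not given in the labels.

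IL-19, IL-20 and IL-24 are secreted mainly by keratinocytes and myeloid cells and signal to epithelial cells. All 3 bind the receptor made of IL-20RA and IL-20RB, and IL-20 and IL-24 also bind the pair of IL-22RA1 and IL-20RB. IL-22RA1 joins IL-10RB to form the receptor of IL-22, and IL-10RB is also a chain of the receptors of IL-10 and of the lambda interferons. The receptors signal through JAK kinases to STAT3 and, in skin, are known for driving keratinocyte proliferation and antimicrobial proteins and for delaying terminal differentiation.

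Libraries held 38.4 to 71.3 M estimated counts. Levels are CPM, the counts per M of TMM-scaled library size, and groups are given as mean ± SD of 4 libraries. Log2 fold changes with their standard errors (SE) were estimated in edgeR by quasi-likelihood, p-values were adjusted by the Benjamini-Hochberg method over all 18218 genes, and a gene was called at an adjusted p under 0.05. Markers of the tissue were present: all 8 basal keratinocyte markers were detected in every group, with summed levels of 1010 to 2440 CPM in S. aureus wounds, 753 to 1220 CPM in A. faecalis wounds and 1260 to 1990 CPM in vehicle wounds, and so were all 6 fibroblast markers. The 8 neutrophil markers summed to 9360 to 14900 CPM in S. aureus wounds. They summed to 1780 to 4210 CPM in A. faecalis wounds and 718 to 8810 CPM in vehicle wounds. With S. aureus most of the sum came from S100a8 (4030 ± 679 CPM) and S100a9 (4710 ± 1050 CPM), which are also counted below among keratinocyte response genes. Between the bacteria 5 of the 8 rose, where 7.61% of all genes did, and Csf3r, Mmp8 and Camp were not called. Against vehicle Camp alone rose, where 3.87% of all genes did. The part of these markers in the results that follow was not tested. The tissue was sequenced whole, so fewer cells of a type and less RNA per cell cannot be told apart. Vehicle replicate 3 stood apart from the other vehicle libraries, with adipocyte markers at 6360 CPM against 1600 to 2110 CPM and neutrophil markers at 718 CPM against 2250 to 8810 CPM.

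With S. aureus 3 of the 7 genes were called against vehicle, where 6.84% of all genes were. Il20 rose, where 3.87% of all genes did, and Il20ra and Il20rb, which encode the 2 chains of the receptor shared by all 3 ligands, fell, where 2.97% did. The same 3 genes did not overlap between the groups (1 higher, 2 lower), as was the case for 15.2% of all genes (7.57% higher, 7.59% lower). Against A. faecalis 5 of 7 were called, where 12.7% of all genes were: Il19, Il20 and Il24 rose with S. aureus, where 7.61% of all genes did, and Il20ra and Il10rb fell, where 5.06% did. Of these Il19, Il20 and Il10rb did not overlap between the bacterial groups, as was the case for 23.2% of all genes (11.8% higher, 11.5% lower). With A. faecalis against vehicle edgeR called 0 of 7, where it called 0.011% of all genes (0.00549% in each direction). At an unadjusted p under 0.05 was 1 of 7, where 1400 of 18218 genes were. DESeq2 and limma-voom called 0 of 7, where they called 120 and 2 genes over the whole table. In that comparison 1 member, Il22ra1, did not overlap, being lower, where 4.02% of all genes did not (1.47% higher, 2.55% lower). The comparisons share their groups and are not independent of one another. Il20 passed the filter on low counts through the S. aureus libraries alone. It could hardly be called lower with S. aureus, so it adds little to these counts.

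**Figure D1:**
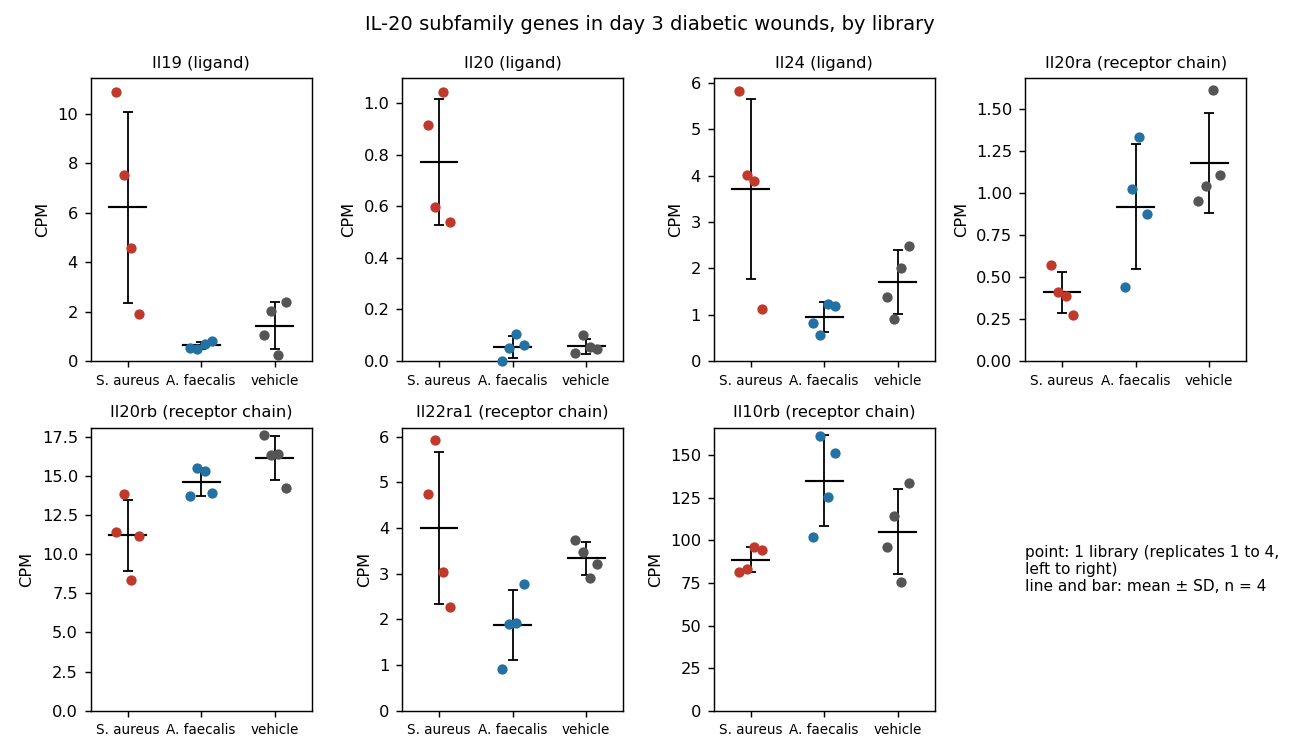
Level of each of the 7 genes in every library (CPM, axes from 0), with the S. aureus, A. faecalis and vehicle groups from left to right; points are libraries, and the line and bar are the mean and SD of 4. The 4 S. aureus libraries lie above all others for Il20 (0.54 to 1.04 CPM) and below every vehicle library for Il20ra (0.273 to 0.571 CPM).

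Il20 had the largest log2 fold change of the 7 genes with S. aureus, against vehicle and against A. faecalis. IL-20 is a keratinocyte-derived ligand that acts back on the epidermis. Its estimated counts were 35.0, 34.5, 41.1 and 28.4 in the S. aureus libraries, 0, 3.5, 6.5 and 2.6 in the A. faecalis libraries and 1.7, 5.2, 3.4 and 2.6 in the vehicle libraries. Every S. aureus library was thus higher than every other library, and the A. faecalis and vehicle libraries overlapped. Il20 averaged 0.773 ± 0.244 CPM in S. aureus wounds, 0.0539 ± 0.0426 CPM in A. faecalis wounds and 0.0576 ± 0.0298 CPM in vehicle wounds. The log2 fold change with S. aureus was 3.68 against vehicle (SE 0.55, adjusted p = 0.00816) and 3.72 against A. faecalis (SE 0.55, adjusted p = 0.00217). Because the counts were low, the summed counts were also compared. They were 139 with S. aureus and 13 with vehicle, a ratio of 13 after scaling by library size (exact 95% interval 7.34 to 25, counting error only), and against the 13 counts with A. faecalis the ratio was 13.3 (7.53 to 25.6). Il20 was called against vehicle in all 12 fits that left out 1 library. With the basal keratinocyte score as a covariate its log2 fold change against vehicle was 3.98 (adjusted p = 0.115), a fit in which edgeR called 0 of 18218 genes and 1773 were at an unadjusted p under 0.05. With Krt15 left out of that score it was 3.78 (adjusted p = 0.0229).

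Il19 rose with S. aureus against A. faecalis and varied widely within the S. aureus group, at 6.23 ± 3.87 CPM, against 0.636 ± 0.152 CPM in A. faecalis wounds and 1.44 ± 0.963 CPM in vehicle wounds. IL-19 is made by keratinocytes and by activated myeloid cells. It was at 10.9, 7.52, 4.6 and 1.91 CPM in S. aureus replicates 1 to 4, at 0.547, 0.481, 0.698 and 0.819 CPM in the A. faecalis replicates and at 1.07, 2.04, 0.262 and 2.38 CPM in the vehicle replicates. All 4 S. aureus libraries were above all A. faecalis libraries, while S. aureus replicate 4 lay below vehicle replicates 2 and 4. Against A. faecalis Il19 rose, with 3.29 as its log2 fold change (SE 0.64, adjusted p = 0.00747), a call made in all 12 fits that left out 1 library. Against vehicle the log2 fold change was 2.12 (SE 0.60) with an adjusted p of 0.0546, which did not pass. It passed without vehicle replicate 4 (adjusted p = 0.0414) and by DESeq2 (adjusted p = 0.00345).

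Il24, whose product IL-24 is made by keratinocytes, immune cells and fibroblasts after injury, varied in a like manner. It was at 5.84, 4.02, 3.88 and 1.12 CPM in S. aureus replicates 1 to 4, at 0.816, 0.553, 1.24 and 1.18 CPM in the A. faecalis replicates and at 1.38, 0.918, 2.02 and 2.49 CPM in the vehicle replicates. S. aureus replicates 1, 2 and 3 were above all other libraries and replicate 4 was within the range of both other groups. The log2 fold change was 1.97 against A. faecalis (SE 0.47, adjusted p = 0.0189) and 1.12 against vehicle (SE 0.45, adjusted p = 0.14). The call against A. faecalis was lost without A. faecalis replicate 2 (adjusted p = 0.0573). It was also lost with the basal keratinocyte score without Krt15 as a covariate, where the log2 fold change was 1.27 (adjusted p = 0.091).

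Il19 and Il24 had the same order of the 4 S. aureus libraries, with replicate 1 the highest and replicate 4 the lowest. Il20ra had this order too. Il20 was highest in replicate 3 and Il22ra1 in replicate 2, and both were lowest in replicate 4. The summed basal keratinocyte markers were 1760, 2440, 1270 and 1010 CPM in S. aureus replicates 1 to 4, and the neutrophil markers 9360, 11300, 14900 and 11100 CPM. S. aureus replicate 4 thus had the least of all 3 ligands, of Il20ra and Il22ra1 and of the keratinocyte markers. The other members differed: Il20rb was lowest in replicate 3 and Il10rb in replicate 1.

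The 3 ligand genes lie side by side in the RefSeq gene order of GRCm38.p6, in the order Il24, Il20, Il19 and Il10, followed by Mapkapk2 and Dyrk3. Il10, the anti-inflammatory founder of the family, moved the other way. It was at 2.44, 4.54, 3.08 and 2.65 CPM in the S. aureus libraries, 11.4, 40.2, 14.4 and 40.3 CPM in the A. faecalis libraries and 9.36, 21.9, 3.00 and 45.1 CPM in the vehicle libraries. All S. aureus libraries were below all A. faecalis libraries, and vehicle replicate 3 was at the level of the S. aureus group. Il10 fell with S. aureus against A. faecalis, where its log2 fold change was -3.06 (SE 0.726) at an adjusted p of 0.0188. That p was 0.0559 without S. aureus replicate 3, 0.0554 without replicate 4 and 0.0686 by limma-voom. Against vehicle the log2 fold change was -2.64 (SE 0.716, adjusted p = 0.0489), and this call was lost in 11 of the 12 fits that left out 1 library, being kept without vehicle replicate 3 (adjusted p up to 0.13; log2 fold change -1.83 without vehicle replicate 4). Of the 15 tested genes on a list of chromosomal neighbours, Il10 was called with S. aureus in both comparisons and the other 14 in neither. Over all genes 6.84% were called against vehicle and 12.7% against A. faecalis, so the list held no excess of calls. Beyond that list, among the 4 genes on each side of a member, Pex7 beside Il20ra fell with S. aureus against vehicle (log2 fold change -0.61, adjusted p = 0.035) and Grhl3 beside Il22ra1 rose against A. faecalis (1.48, adjusted p = 0.00887). Tmem50b near Il10rb rose with S. aureus against both vehicle (0.48, adjusted p = 0.0193) and A. faecalis (0.48, adjusted p = 0.0088). These 3 genes were chosen after their values were seen. Mapkapk2, a kinase gene on the far side of Il10, had log2 fold changes of -0.17 against vehicle and -0.40 against A. faecalis, and Faim3, which lies beside Il24, had -0.30 and 0.42. Neither of the pair passed.

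RefSeq windows of 300 bases around a transcript start (250 before, 50 after; build GRCm38.p6, while the submitters' processing notes name GRCm39) were available for 5 of the 7 genes. The 3 shown belong to the genes with the largest changes against vehicle among those with a window, 2 ligands and the receptor chain Il20ra. Each is written along the gene's own strand, and capitals mark matches to TTCNNNGAA, the palindrome bound by STAT factors, or TGANTCA, the AP-1 element. The windows of Il19 and Il20ra start from a transcript start inside the gene's span, and that of Il20 from the outermost start.
Il19 (chr1:130940066-130940365, minus strand): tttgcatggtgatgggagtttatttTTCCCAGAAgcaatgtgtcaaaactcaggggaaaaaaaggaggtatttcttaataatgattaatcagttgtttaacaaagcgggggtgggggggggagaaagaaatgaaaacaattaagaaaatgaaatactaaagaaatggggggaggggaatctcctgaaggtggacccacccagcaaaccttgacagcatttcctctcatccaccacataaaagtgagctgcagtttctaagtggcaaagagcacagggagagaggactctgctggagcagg
Il20 (chr1:130911247-130911546, minus strand): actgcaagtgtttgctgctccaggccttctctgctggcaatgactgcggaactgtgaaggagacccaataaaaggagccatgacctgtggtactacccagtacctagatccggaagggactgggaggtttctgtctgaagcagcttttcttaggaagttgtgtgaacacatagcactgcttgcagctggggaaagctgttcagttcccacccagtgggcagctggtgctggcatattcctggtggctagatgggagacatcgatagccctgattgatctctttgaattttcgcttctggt
Il20ra (chr10:19712337-19712636, plus strand): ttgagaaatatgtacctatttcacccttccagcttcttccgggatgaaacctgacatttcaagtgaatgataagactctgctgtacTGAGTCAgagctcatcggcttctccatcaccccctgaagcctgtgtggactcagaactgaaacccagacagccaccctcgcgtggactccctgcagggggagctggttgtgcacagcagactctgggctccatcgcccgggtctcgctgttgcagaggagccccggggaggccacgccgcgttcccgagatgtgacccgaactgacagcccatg

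The Il19 window held 1 STAT match, TTCCCAGAA, which began 225 bases before the start, a motif found in 8.3% of 32851 windows. The Il20ra window held 1 AP-1 match, TGAGTCA, 164 bases before the start, and the Il22ra1 window held TGAATCA 222 bases before the start; 7.81% of windows had an AP-1 match. A form of the NF-kB motif, found in 1.63% of windows, was in none of the 5, and the windows of Il20 and Il20rb held none of the 3 motifs. Both strands were searched, and no matches overlapped.

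Il20ra, whose product pairs with IL-20RB in the receptor shared by the ligands, fell with S. aureus. Its estimated counts were 21.9, 23.9, 15.3 and 14.4 in the S. aureus libraries, 26.2, 71.4, 84.3 and 36.9 in the A. faecalis libraries and 55.1, 54.5, 102.5 and 61.0 in the vehicle libraries. As CPM these were 0.571, 0.413, 0.388 and 0.273 with S. aureus, 0.444, 1.03, 1.34 and 0.876 with A. faecalis and 0.956, 1.04, 1.62 and 1.11 with vehicle. The S. aureus libraries were all below the vehicle libraries and overlapped with A. faecalis replicate 1 alone.

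The log2 fold change of Il20ra was -1.54 against vehicle (SE 0.35, adjusted p = 0.0267) and -1.17 against A. faecalis (SE 0.35, adjusted p = 0.0467). The call against vehicle was lost without vehicle replicate 3 (adjusted p = 0.0508), S. aureus replicate 2 (0.067), replicate 3 (0.084) or replicate 4 (0.0779), with log2 fold changes between -1.55 and -1.33. It was also lost with the basal keratinocyte score as a covariate (log2 fold change -0.64, adjusted p = 0.595). In that fit edgeR called 0 of 18218 genes against vehicle, so every call was lost there. With Krt15 left out of the score the call was lost too (log2 fold change -1.23, adjusted p = 0.0613). Against A. faecalis the call held in 3 of the 12 fits that left out 1 library, those without S. aureus replicate 1, A. faecalis replicate 1 or vehicle replicate 3 (over the 12, log2 fold changes were -1.4 to -0.93 and the highest adjusted p was 0.132), and was lost by limma-voom (adjusted p = 0.0785).

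Il20rb, the chain shared by both receptors of the subfamily, fell with S. aureus against vehicle. It was at 11.4, 13.9, 8.33 and 11.2 CPM in S. aureus wounds, 13.7, 15.5, 15.3 and 13.9 CPM in A. faecalis wounds and 17.6, 16.3, 16.4 and 14.3 CPM in vehicle wounds. The S. aureus libraries lay below the vehicle libraries without overlap, S. aureus replicate 2 coming closest to them. The log2 fold change was -0.53 against vehicle (SE 0.135, adjusted p = 0.0408). Of the 12 fits that left out 1 library the call held in 2, those without vehicle replicate 4 or S. aureus replicate 2; in the others the adjusted p was up to 0.0944 and the log2 fold change -0.53 to -0.41. It was also lost with the basal keratinocyte score as a covariate (log2 fold change -0.34, adjusted p = 0.575), where edgeR called 0 of 18218 genes. With Krt15 left out of the score the call was lost too (log2 fold change -0.46, adjusted p = 0.107). Against A. faecalis the log2 fold change was -0.38 (SE 0.135, adjusted p = 0.0846), which passed without S. aureus replicate 2 (adjusted p = 0.0361) and by DESeq2 (0.0468).

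Il22ra1, the epithelial chain that pairs with IL-20RB for IL-20 and IL-24 and with IL-10RB for IL-22, did not follow Il20ra and Il20rb. It was at 4.75, 5.94, 3.03 and 2.27 CPM in S. aureus wounds, 0.923, 1.90, 1.92 and 2.78 CPM in A. faecalis wounds and 3.74, 3.48, 2.91 and 3.22 CPM in vehicle wounds. The S. aureus libraries lay on both sides of the vehicle libraries, and all A. faecalis libraries lay below all vehicle libraries. Against vehicle the log2 fold change was 0.26 with S. aureus (SE 0.33, adjusted p = 0.656) and -0.84 with A. faecalis (SE 0.335, adjusted p = 0.601; unadjusted p = 0.0285). The summed basal keratinocyte markers were also lower with A. faecalis, at 753 to 1220 CPM, than with vehicle, at 1260 to 1990 CPM. With the basal keratinocyte score as a covariate the log2 fold change with A. faecalis was -0.3, and -0.14 with Krt15 left out of the score. Il22ra1 was not called in either fit, and the part of keratinocyte content in its values was not tested. Between the bacteria the log2 fold change was 1.10 (SE 0.34, adjusted p = 0.0534); it passed without vehicle replicate 3 (0.0421), A. faecalis replicate 4 (0.0428) or S. aureus replicate 4 (0.0313), with DESeq2 size factors (0.0496) and by DESeq2 (0.00949). With the basal keratinocyte score it was 1.29 (adjusted p = 0.0118), and 0.62 (adjusted p = 0.171) with Krt15 left out of the score.

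Il10rb, the widely expressed chain shared with the IL-10, IL-22 and lambda interferon receptors, was lower with S. aureus than with A. faecalis. It was at 81.6, 83.1, 95.9 and 94.4 CPM in S. aureus wounds, 102, 161, 125 and 151 CPM in A. faecalis wounds and 96.1, 115, 75.5 and 134 CPM in vehicle wounds. The bacterial groups did not overlap, as was the case for 23.2% of all genes, and the vehicle group overlapped with both. The log2 fold change with S. aureus was -0.60 against A. faecalis (SE 0.176, adjusted p = 0.0441) and -0.24 against vehicle (SE 0.176, adjusted p = 0.407). The call against A. faecalis held in 3 of the 12 fits that left out 1 library. These were the fits without A. faecalis replicate 1 or vehicle replicates 3 or 4. Over the 12 the highest adjusted p was 0.113. The call was also lost by limma-voom (0.0505). With the basal keratinocyte score as a covariate, with or without Krt15, it was lost too (adjusted p up to 0.0939). The 8 monocyte and macrophage markers summed to 3070 to 3870 CPM in S. aureus wounds, 3580 to 6250 CPM in A. faecalis wounds and 3090 to 5570 CPM in vehicle wounds; their part in the Il10rb values was not tested.

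**Figure D2:**
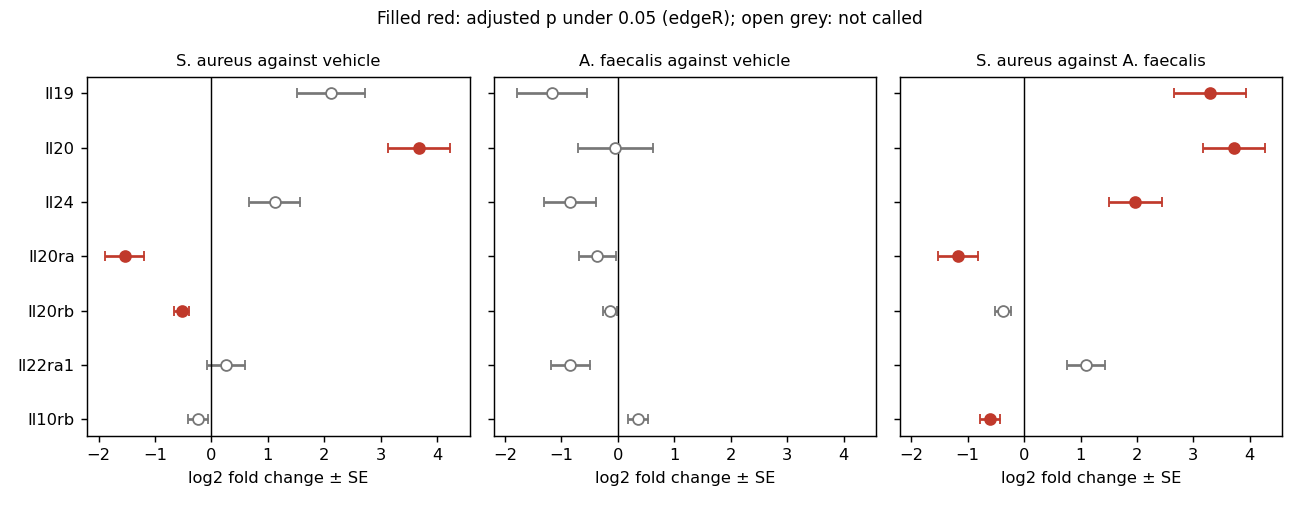
Log2 fold change with its SE (x axis) of the 7 genes (y axis) in each comparison; filled red points passed an adjusted p of 0.05 in edgeR and open grey points did not. With S. aureus the ligands lie right of 0 (1.12 to 3.68 against vehicle) and Il20ra and Il20rb left of it (-1.54 and -0.53).

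The levels of the receptor chains were set against those of basal keratinocytes, which carry them, as CPM per 1000 CPM of the 8 summed basal markers. On this scale Il20ra was at 0.267 ± 0.069 with S. aureus (range 0.169 to 0.324), 0.851 ± 0.221 with A. faecalis (0.589 to 1.09) and 0.695 ± 0.157 with vehicle (0.495 to 0.827). The S. aureus libraries were below all others. Il20rb was at 7.45 ± 2.44 with S. aureus, 14.3 ± 2.78 with A. faecalis and 9.63 ± 2.24 with vehicle; the S. aureus range of 5.69 to 11.1 overlapped with the vehicle range of 8.22 to 12.9 and not with the A. faecalis range of 12.1 to 18.2. Il22ra1 was at 2.44 ± 0.184 with S. aureus, 1.75 ± 0.501 with A. faecalis and 2.01 ± 0.546 with vehicle, with all groups overlapping. The sum is carried mostly by Krt14 and Krt5, whereas Krt15, a keratin of resting basal and hair follicle cells, was itself at 1.29 ± 0.687 CPM in S. aureus wounds, 20.4 ± 8.85 CPM in A. faecalis wounds and 24.1 ± 18.6 CPM in vehicle wounds.

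**Figure D3:**
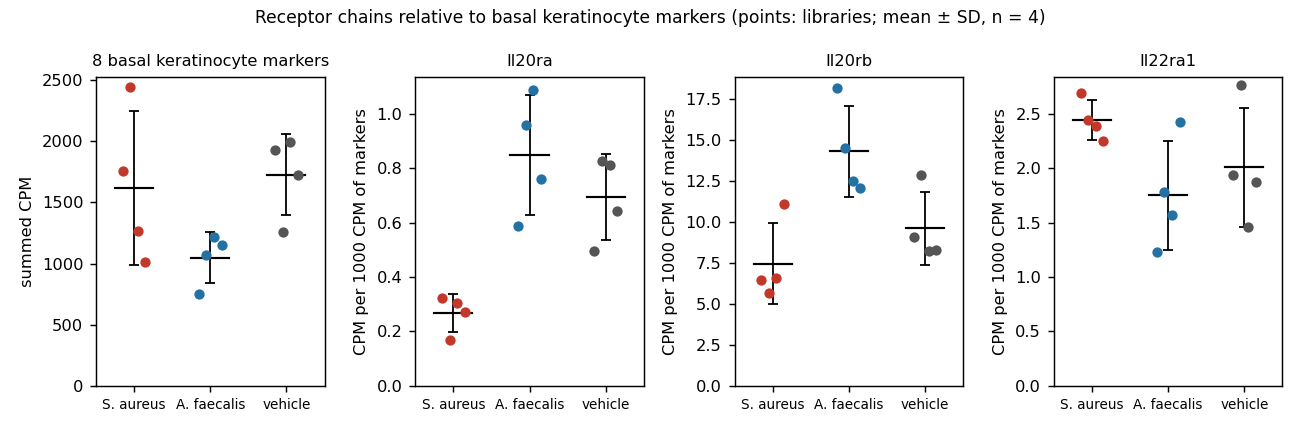
Left, summed CPM of 8 basal keratinocyte markers in every library; right, Il20ra, Il20rb and Il22ra1 as CPM per 1000 CPM of those markers, with the S. aureus, A. faecalis and vehicle groups from left to right (points are libraries, line and bar are mean and SD of 4). For Il20ra the S. aureus libraries (0.169 to 0.324) lie below all other libraries (from 0.495).

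Per kilobase of the longest coding transcript in the GENCODE M21 annotation, Il10rb was the most abundant of the 7 mRNAs in every group, at 48.0 ± 4.02 CPM per kb with S. aureus, 73.0 ± 14.4 with A. faecalis and 56.8 ± 13.5 with vehicle. With S. aureus the order of the levels below it was Il19 (5.49 ± 3.41), Il20rb (4.01 ± 0.81), Il24 (3.14 ± 1.65), Il22ra1 (1.56 ± 0.646), Il20 (0.652 ± 0.206) and Il20ra (0.195 ± 0.0583). Il19, Il20rb and Il24 overlapped in range, as did Il24 and Il22ra1, while the ranges of Il20 (0.455 to 0.879) and Il20ra (0.13 to 0.271) overlapped with no neighbour in the order. With A. faecalis the order was Il20rb (5.23 ± 0.331), Il24 (0.801 ± 0.273), Il22ra1 (0.732 ± 0.295), Il19 (0.561 ± 0.134), Il20ra (0.437 ± 0.176) and Il20 (0.0454 ± 0.0359). With vehicle it was Il20rb (5.77 ± 0.493), Il24 (1.44 ± 0.586), Il22ra1 (1.30 ± 0.14), Il19 (1.27 ± 0.848), Il20ra (0.561 ± 0.141) and Il20 (0.0486 ± 0.0251). In both of these groups Il20 was below Il20ra without overlap, while Il24, Il22ra1, Il19 and Il20ra overlapped with their neighbours in the order. The order of Il20 and Il20ra was thus turned round with S. aureus.

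Of the other genes of the IL-10 family, Il22, which encodes the ligand of IL-22RA1 and IL-10RB made by lymphocytes, was below the filter on low counts. Its estimated counts were 8.0, 12.5, 3.0 and 2.9 with S. aureus, 0, 0, 1.0 and 2.0 with A. faecalis and 1.0, 2.0, 0 and 0 with vehicle. As CPM every S. aureus library was above every other library. The summed counts were 26 with S. aureus and 3 with vehicle, a scaled ratio of 10.5 (exact 95% interval 3.22 to 54.2), and against the 3 counts with A. faecalis the ratio was 10.8 (3.3 to 55.6). The two-sided exact permutation test gave p = 0.0286 for each, the smallest that 4 against 4 libraries allow, unadjusted. Iltifb, a near-identical copy of Il22, had 2.5 counts with S. aureus, 2.3 with A. faecalis and 0 with vehicle, and reads shared by the pair may have been divided between them. The 7 T and NK lymphocyte markers in the table summed to 13.1 to 18.3 CPM in S. aureus wounds, 19.0 to 28.7 CPM in A. faecalis wounds and 15.3 to 17.7 CPM in vehicle wounds. The lambda interferon genes Ifnl2 and Ifnl3 had 0 counts in every library. Il22ra2, the soluble decoy receptor of IL-22, was at 1.18 ± 0.506 CPM in S. aureus wounds, 1.35 ± 0.615 CPM in A. faecalis wounds and 1.51 ± 0.387 CPM in vehicle wounds, and it, Il10ra and Ifnlr1 were not called in any comparison.

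Cytokines known to induce the IL-20 subfamily were followed as a list of 17, chosen with earlier results of these data known. With S. aureus 3 of 17 rose against vehicle and none fell, where 3.87% of all genes rose, and the median log2 fold change was 0.73, where that of all genes was -0.04. Against A. faecalis 7 of 17 rose and none fell, where 7.61% of all genes rose, and the median was 1.02, where that of all genes was -0.02. Both counts include Il17a and Ifng, which, like Il20, passed the filter on low counts through the S. aureus libraries alone. In vehicle libraries they reached at most 0.303 and 0.151 CPM, and in A. faecalis libraries 0.0337 and 0.114 CPM. Such genes could hardly be called lower with S. aureus, so they add little to the counts. With A. faecalis against vehicle 0 of 17 were called, where 0.011% of all genes were, and the median was -0.31, against -0.03 for all genes. Osm, a gp130 cytokine of neutrophils and macrophages, rose to 125 ± 36.6 CPM in S. aureus wounds, against 12.9 ± 3.12 CPM in A. faecalis wounds and 25.6 ± 17.3 CPM in vehicle wounds; its log2 fold change was 3.27 against A. faecalis (SE 0.457, adjusted p = 0.00179) and 2.28 against vehicle (SE 0.438, adjusted p = 0.0162). The neutrophil markers given above were also highest with S. aureus, and their part in the Osm values was not tested. Il17a, the lymphocyte cytokine that acts on keratinocytes, was at 1.38 ± 0.387 CPM in S. aureus wounds, 0.00842 ± 0.0168 CPM in A. faecalis wounds and 0.119 ± 0.137 CPM in vehicle wounds, and was called against A. faecalis (adjusted p = 0.00214) and against vehicle (adjusted p = 0.0214). Its summed counts were 251.3 with S. aureus, 2.0 with A. faecalis and 25.7 with vehicle, so the fitted log2 fold change of 6.99 against A. faecalis rests on few counts and depends on the prior count. Ifng, the type II interferon, was at 0.473 ± 0.198, 0.0818 ± 0.0322 and 0.0724 ± 0.0748 CPM in the S. aureus, A. faecalis and vehicle groups, and was called against A. faecalis (adjusted p = 0.0295) and against vehicle (adjusted p = 0.0379). Against A. faecalis the alarmin gene Il33, the gp130 cytokine Lif, Il6 and Il1f8 (interleukin-36 beta) were called as well, the log2 fold changes of Il33, Lif and Il1f8 being 0.94, 1.49 and 1.36. Tnf did not pass, at a log2 fold change of -1.06 against vehicle (adjusted p = 0.237) and -1.67 against A. faecalis (adjusted p = 0.0708). The fit against vehicle with the basal keratinocyte score as a covariate called 0 of 18218 genes. The calls of Osm and Il17a against vehicle were lost in it and with the 2 groups alone (adjusted p up to 0.364 and 0.342). Both calls were also lost without S. aureus replicate 3 (adjusted p = 0.0505 and 0.0633). Those of Ifng were lost without any of 8 libraries against vehicle and any of 6 against A. faecalis (adjusted p up to 0.113 and 0.0895), and that of Il1f8 without any of 5 (up to 0.0732).

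In the JAK-STAT chain of these receptors, Socs1, an inhibitor of JAK kinases, rose with S. aureus in both comparisons, and Cish, another feedback inhibitor, rose against A. faecalis. Socs1 was at 6.95 ± 1.47, 2.91 ± 1.2 and 3.27 ± 0.852 CPM in the S. aureus, A. faecalis and vehicle groups, with a log2 fold change of 1.25 against A. faecalis (SE 0.294, adjusted p = 0.0175; 0.0534 without S. aureus replicate 3) and 1.09 against vehicle (SE 0.292, adjusted p = 0.0469). The call against vehicle was lost without any of 8 libraries (adjusted p up to 0.13). Cish was at 25 ± 2.79, 12 ± 1.51 and 18.1 ± 7.24 CPM in the same groups, and its log2 fold change against A. faecalis was 1.06 (SE 0.219, adjusted p = 0.00985). With A. faecalis against vehicle 0 of 11 genes of the chain were called, where 0.011% of all genes were. Their median log2 fold change was -0.08, against -0.03 for all genes. Stat3, the main STAT of these receptors, was at 524 ± 46.4 CPM in S. aureus wounds, 368 ± 15.3 CPM in A. faecalis wounds and 377 ± 107 CPM in vehicle wounds. It did not pass in either comparison (log2 fold change 0.48, adjusted p = 0.102 against vehicle; 0.51, adjusted p = 0.0703 against A. faecalis). Socs3, the feedback inhibitor downstream of STAT3, was at a log2 fold change of 0.67 against vehicle (adjusted p = 0.327) and 0.21 against A. faecalis (adjusted p = 0.784).

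Of 16 genes known to respond to these cytokines in keratinocytes, 4 rose with S. aureus against vehicle (Defb4, Ccl20, Pdgfa and Hbegf) and none fell, where 3.87% of all genes rose, and all 16 had a log2 fold change above 0, with a median of 0.84. Against A. faecalis 13 of 16 rose and none fell, where 7.61% of all genes rose, with a median of 1.56. The list was chosen with earlier results of these data known, so its excess over that share is a description. With A. faecalis against vehicle 0 of 16 were called, where 0.011% of all genes were. Of the 16, 14 had a log2 fold change below 0, with a median of -0.89, against -0.03 for all genes. Defb4, a beta-defensin, was at 4.08 ± 2.13 CPM in S. aureus wounds, 0.223 ± 0.122 CPM in A. faecalis wounds and 0.835 ± 0.151 CPM in vehicle wounds (log2 fold change 4.22, adjusted p = 0.000798 against A. faecalis; 2.28, adjusted p = 0.0139 against vehicle). Ccl20, a chemokine for CCR6-bearing cells, was at 1.07 ± 0.253, 0.418 ± 0.124 and 0.431 ± 0.12 CPM in the S. aureus, A. faecalis and vehicle groups. Defb14, Krt6b and Krt16 were called between the bacteria, with log2 fold changes of 2.07, 1.62 and 1.49. S100a8 and S100a9, called between the bacteria, are also neutrophil genes and stand in the neutrophil marker list. The summed basal keratinocyte markers were higher in most S. aureus libraries (1010 to 2440 CPM) than in the A. faecalis libraries (753 to 1220 CPM). With the basal keratinocyte score as a covariate, with or without Krt15, Defb4, Defb14, Krt6b, Krt16, Hbegf, Ccl20 and Pdgfa were still called between the bacteria; without Krt15 in the score the log2 fold change of Krt16 was 0.98 and that of Krt6b 1.13. Against vehicle the calls of Defb4, Ccl20, Pdgfa and Hbegf were lost with the score (adjusted p = 0.115, 0.152, 0.518 and 0.256). In that fit edgeR called 0 of 18218 genes against vehicle, so every call was lost there. With Krt15 left out of the score the call of Pdgfa alone was lost (0.0782). The call of Pdgfa against vehicle was also lost without S. aureus replicates 2, 3 or 4 or vehicle replicate 1 (adjusted p up to 0.0914), and that of Hbegf without S. aureus replicate 3 (0.0587). Of the 12 differentiation genes, which these cytokines lower in human skin models, Flg2 fell with S. aureus in both comparisons, to 14.9 ± 6.96 CPM, against 74.9 ± 21.1 CPM in A. faecalis wounds and 119 ± 78.4 CPM in vehicle wounds. Over all genes 2.97% fell against vehicle and 5.06% against A. faecalis. Klk7, Tgm3 and Cdsn of the differentiation list rose against A. faecalis, where 7.61% of all genes did. With S. aureus against vehicle 8 of 12 had a log2 fold change above 0 (median 0.32, against -0.04 for all genes). With A. faecalis against vehicle all 12 were below 0 (median -0.46, against -0.03 for all genes). None of the 12 was called there, where 0.011% of all genes were.

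**Figure D4:**
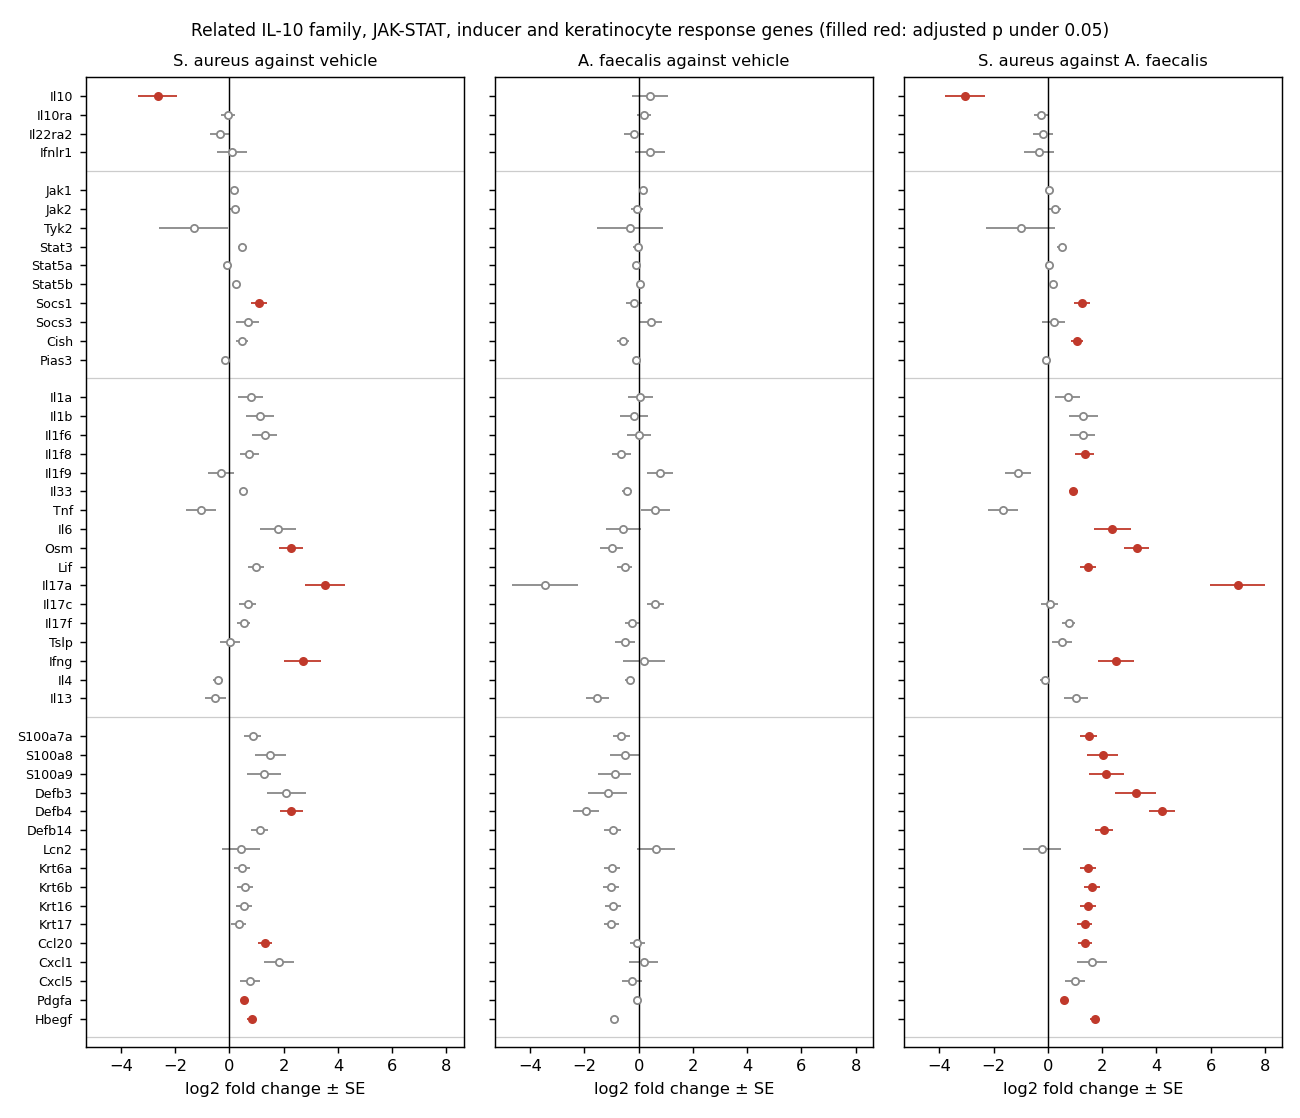
Log2 fold change with its SE (x axis) of genes of 4 lists (y axis; from the top, other IL-10 family genes, the JAK-STAT chain, inducing cytokines and keratinocyte response genes) in each comparison; filled red points passed an adjusted p of 0.05 in edgeR. Il17a against A. faecalis (6.99, from 2.0 counts with A. faecalis) lies farthest to the right and Il10 (-3.06) farthest to the left among the called genes.

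The 7 members fell into different patterns across the 12 libraries. The genes most like each member were ranked by Pearson's r of log2 CPM among genes with a mean of at least 1 CPM, as a description, since the groups and the library make-up are shared by all genes. Il19 was most like Pglyrp4, a peptidoglycan recognition protein of skin (r = 0.96), Gml (0.96), Sprr2b (0.94) and Grem1 (0.94). Il20 was most like the interferon-responsive factor gene Irf1 (0.96), Nrn1 (0.95), Sdcbp2 (0.95) and the junctional adhesion gene F11r (0.95). Il24 was most like Defb14 (0.93), the epidermal protease gene Klk6 (0.93), Pard6b (0.92) and Atp1b1 (0.92). Il20ra was most like Ano9 (0.96), Tnfrsf19 (0.94), Tspan8 (0.94) and Lce1m (0.94), and Il20rb like Cul9 (0.94), Zfp839 (0.93), the keratin Krt78 (0.92) and Tatdn3 (0.92). Il22ra1 was most like Lypd5 (0.98), Ovol1 (0.97), Fgfbp1 (0.97) and the connexin Gjb6 (0.97), and Il10rb like Mapk7 (0.99), Pip5k1c (0.97), Lrrc25 (0.97) and Cstb (0.97). Among the members themselves r was 0.82 for Il19 and Il20, 0.77 for Il19 and Il24, 0.74 for Il20ra and Il20rb and -0.76 for Il20 and Il20rb, over the same 12 libraries.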

How the data were processed

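RNA was measured in skin of 12 wounded mice, 4 per group. Per the submitters' processing notes the authors used kallisto 0.48.0, R 4.1.3, DESeq2 1.34.0, FastQC 0.12.1 and the build GRCm39; per the labels' protocols the libraries were stranded total RNA after ribosomal depletion. The deposited table holds the authors' estimated counts per gene, unnormalized; kallisto divides reads shared by similar transcripts, so close paralogs are uncertain, and the sources do not state how transcripts were summed to genes. One row with no gene name (0.00909% to 0.0151% of a library) was left out, and counts were rounded to whole numbers. The members and gene lists were chosen with earlier results of these data known.

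All 12 libraries entered 1 edgeR 4.0.16 model (R 4.3.3; TMM; filterByExpr with minimum count 10 and minimum total 15; robust quasi-likelihood test, two-sided), which was tested on simulated data. CPM use TMM-scaled sizes. The alternatives were DESeq2 1.42.0, limma-voom (limma 3.58.1), other scalings and filters, fits of 2 groups, a replicate block, a basal keratinocyte score as covariate, and each library left out. Replicates of a group differed by a chi-square of 29.6 to 486 per degree of freedom, so none looked like 1 library deposited under 2 names. Named list genes are those called, up to 6 per list and comparison by adjusted p, or uncalled ones that a result turns on; genes alike in pattern are the first 4 by r. Intervals cover counting error only. One list gene is not reported here.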

Additional observations from a re-analysis of the deposited data

How the results depend on the processing

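The A. faecalis comparison with vehicle called 0 of the 7 members under every setting run, and Il19 and Il20 kept their calls between the bacteria under every setting that tested them. Of the 455 alternative fits of single members, 385 kept both direction and side of the threshold. The 455 include the fits of A. faecalis against vehicle, where no member was called to begin with. A called member lost its call in 49 fits, and an uncalled member gained a call in 11. Most losses were those of Il20rb against vehicle and of Il20ra and Il10rb between the bacteria. The members called with S. aureus against vehicle (3 as reported) were 1 with a mean of at least 1 CPM, where Il20 and Il20ra are not tested, 0 with the basal keratinocyte score as a covariate in edgeR (4 at an unadjusted p under 0.05), 1 with that score without Krt15 (chosen after seeing the data), and 1 to 4 with 1 library left out. Between the bacteria (5) they were 7 by DESeq2, 3 by limma-voom, 3 with the score without Krt15 and 2 to 6 with 1 library left out. Genes called over the whole table with S. aureus against vehicle (1246) were 2873 by DESeq2, 350 with the 2 groups alone, 0 and 390 with the score with and without Krt15 and 260 to 1747 with 1 library left out. With A. faecalis against vehicle (2) they were 120, 1 and 0 by DESeq2 and with the 2 scores, and 2 to 10; between the bacteria (2309) they were 3475 by DESeq2 and 1313 to 3458. The cause was not tested.

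Changes of direction concerned uncalled values. With A. faecalis against vehicle Il20 (-0.04) was at 0.16 and 0.18 with the score with and without Krt15 and, with 1 library left out, from -0.64 to 0.38 (0.38 and 0.08 without A. faecalis replicates 1 and 2, 0.29 without replicate 2 of vehicle). Il20ra (-0.36) was at 0.27 and 0.34 with the 2 scores, and Il24 and Il20rb at 0.22 and 0.02 with the score without Krt15. Il22ra1 with S. aureus against vehicle (0.26) ranged from -0.00064, without S. aureus replicate 2, to 0.46.

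The labels' replicate numbers did not pair the libraries: 3 of 12 same-numbered pairs had correlated deviations over 0.1 (range -0.21 to 0.18), and 3 of 12 libraries matched their own number best. With the replicate number as a block the members called were 2 (S. aureus against vehicle, Il20rb at an adjusted p of 0.0516), 0 and 4 (between the bacteria, Il20ra at 0.0758). Ranked by Spearman's rho, 0 of the 4 genes most like Il19, Il20 and Il20rb were shared with Pearson's r, 1 for Il24, Il22ra1 and Il10rb, and 2 for Il20ra. With no filter on low counts the calls of Il20rb against vehicle (adjusted p = 0.0504) and Il20ra between the bacteria (0.0551) were lost. All members passed the filter, so no member needed the comparison planned for those below it. Its count ratio was also given for Il20, and its count ratio and permutation test for Il22, which is not a member. Il20 had low counts with A. faecalis and vehicle (0 to 6.5 per library), and the scaled ratio of their summed counts was 0.975. Its exact interval of 0.416 to 2.28 covers counting error only and leaves out variation between mice. The fitted log2 fold change was -0.04 (SE 0.675). The smallest detectable difference was not estimated, so the lack of a call does not show equal levels.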
